A study of Homo sapiens with 6 samples.

Results

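Box H/ACA RNAs and their relatives in Cajal bodies were followed gene by gene in a myeloma line with and without overexpression of the transcriptional coactivator TAZ. The genes were selected on their level, as those under a SNORA or SCARNA symbol whose TPM, summed over the transcripts of a gene, averaged at least 1 over the 6 libraries. TPM is an abundance corrected for transcript length and given as a share of a library. The deposited data list 63677 genes, of which 491 carried such a symbol and 226 passed the level, 192 SNORA and 34 SCARNA genes with 113 distinct symbols. The other 265 lay below it, and 183 of those were listed at 0 in every library. Since the mean over all libraries chose the genes, their levels are given as a description, and the difference between the groups was not itself part of the choice. A gene near the limit can still pass through the group where it is high, as SNORA59A did.

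Total RNA of KMS27 was sequenced after depletion of ribosomal RNA, in 3 libraries from cells that overexpress HA-TAZ and 3 from cells labelled wild type. KMS27 is an established human multiple myeloma line, so every library comes from the same malignant plasma cells. TAZ is the product of WWTR1 and is held in check by the Hippo pathway, and HA marks the epitope tag fused to it. The promoter that drives HA-TAZ and the way it was introduced are not given in the sources used here. The titles of the wild type samples also carry the letters HA, and the control columns of the deposited table are named scr, a name in no label. These columns were taken as the wild type libraries by elimination, with a, b and c as plain names, and whether the controls carried a construct is not known. The labels speak of replicates without saying that they are separate cultures, so the tests measure the spread between these libraries, which may be technical.

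Box H/ACA RNAs fold into hairpins joined by a short hinge, and the trinucleotide ACA near the 3′ end gives them their name. With the pseudouridine synthase dyskerin and its partner proteins they choose the uridines of ribosomal and spliceosomal RNAs that become pseudouridine. The SCARNA genes encode the Cajal body forms, which modify spliceosomal RNAs and include pure H/ACA, pure C/D and mixed molecules. In human cells most of these RNAs are cut out of introns of other genes, called host genes, and telomerase RNA shares the same 3′ domain and proteins.

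The sequences that the results turn on are printed here as DNA letters, 5′ to 3′, for transcripts whose versioned identifiers in the deposited table matched GENCODE release 29. Capitals mark the ACA box, and in SCARNA5 the C box TGATGA and the D box CTGA instead. The set holds the most abundant gene, SNORA73B in SNHG3 on chromosome 1, and SCARNA5 in ATG16L1 on chromosome 2 as an example of the mixed kind. SCARNA22, or ACA11, lies in an intron of the histone methyltransferase gene NSD2 on chromosome 4, a gene well known in myeloma.
SNORA73B: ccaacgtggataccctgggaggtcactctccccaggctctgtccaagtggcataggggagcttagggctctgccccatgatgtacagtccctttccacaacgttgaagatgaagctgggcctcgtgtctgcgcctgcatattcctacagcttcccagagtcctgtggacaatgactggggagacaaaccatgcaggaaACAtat
SCARNA5: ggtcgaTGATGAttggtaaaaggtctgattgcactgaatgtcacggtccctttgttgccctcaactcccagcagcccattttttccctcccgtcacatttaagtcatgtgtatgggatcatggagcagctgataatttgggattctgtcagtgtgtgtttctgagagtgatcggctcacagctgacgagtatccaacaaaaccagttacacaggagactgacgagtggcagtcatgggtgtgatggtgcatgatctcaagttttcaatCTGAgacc
SCARNA22: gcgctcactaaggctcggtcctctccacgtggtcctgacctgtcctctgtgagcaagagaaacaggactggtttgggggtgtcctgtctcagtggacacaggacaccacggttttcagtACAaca
The 5 genes that rose and the 4 that fell are shown next, except SNORA59B, whose 152-base transcript is identical to that of SNORA59A. SNORA47 lies in ZBED3 on chromosome 5, SNORA55 in PABPC4 on chromosome 1, SNORA59A in VPS13D on chromosome 1, SNORA7B in the pseudogene RPL32P3 on chromosome 3 and this SNORA22 copy, SNORA22C in GENCODE, in the pseudogene CCT6P3 on chromosome 7.
SNORA47: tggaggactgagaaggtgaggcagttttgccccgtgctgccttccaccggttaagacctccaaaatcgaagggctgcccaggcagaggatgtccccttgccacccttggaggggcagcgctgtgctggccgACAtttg
SNORA55: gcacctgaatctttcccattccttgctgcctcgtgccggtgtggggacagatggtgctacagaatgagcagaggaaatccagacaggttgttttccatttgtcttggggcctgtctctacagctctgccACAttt
SNORA59A: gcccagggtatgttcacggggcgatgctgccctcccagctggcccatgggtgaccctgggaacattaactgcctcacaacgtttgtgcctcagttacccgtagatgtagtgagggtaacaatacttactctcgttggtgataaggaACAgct
SNORA7B: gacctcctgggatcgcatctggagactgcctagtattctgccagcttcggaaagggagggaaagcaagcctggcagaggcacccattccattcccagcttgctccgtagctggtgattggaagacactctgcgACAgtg
SNORA22C: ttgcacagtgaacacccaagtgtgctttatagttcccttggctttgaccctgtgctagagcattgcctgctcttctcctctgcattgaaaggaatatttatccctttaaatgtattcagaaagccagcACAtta
The 3 remaining genes that fell are scattered copies on chromosome 2 that GENCODE names only by their Rfam family. They are a SNORA4 copy opposite SF3B1, a SNORA36 copy opposite GPN1 and a SNORA67 copy inside MAP4K3 on its strand.
SNORA4 copy: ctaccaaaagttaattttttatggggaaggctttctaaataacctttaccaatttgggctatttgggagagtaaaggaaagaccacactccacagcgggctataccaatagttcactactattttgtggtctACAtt
SNORA36 copy: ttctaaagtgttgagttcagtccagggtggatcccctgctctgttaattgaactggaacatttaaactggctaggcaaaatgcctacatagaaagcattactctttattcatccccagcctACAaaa
SNORA67 copy: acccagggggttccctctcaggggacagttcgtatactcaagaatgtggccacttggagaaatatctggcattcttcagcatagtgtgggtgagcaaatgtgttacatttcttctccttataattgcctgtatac
The SNORA67 copy has no ACA among its last 10 bases.

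The overexpressed gene set the groups apart. WWTR1 lay between 292.6 and 305.7 TPM in the HA-TAZ libraries and between 1.69 and 2.69 TPM in the controls. Of 8 plasma cell genes looked at, SDC1, IRF4, XBP1, PRDM1 and TNFRSF17 lay at 41.0 TPM or more in every library. MZB1 lay between 23.8 and 34.9 TPM, CD38 averaged 9.73 TPM with HA-TAZ and 18.7 TPM in the controls, and SLAMF7 averaged 7.01 and 3.93 TPM. The B cell genes MS4A1 and PAX5, the T cell gene CD3E, the myeloid gene LYZ and the epithelial gene EPCAM stayed under 0.50 TPM in every library. The haemoglobin gene HBB reached 0.857 TPM and the fibroblast gene COL1A1 lay between 0.832 and 2.12 TPM. The part of these shifts in the results below was not tested. In bulk RNA a change in the makeup of the culture and a change per cell cannot be told apart.

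The 226 genes differed widely in level, and a few held much of the signal. Their median was 8.22 TPM, 106 reached 10 TPM, 12 reached 100 TPM and 77 stayed under 5 TPM. SNORA73B and SCARNA10 together held 22.4% of the summed TPM, and the top 10 genes held 42.2%. SNORA73B, an abundant RNA linked to early cleavages of ribosomal RNA, stood at 846, 811 and 814 TPM with HA-TAZ and at 678, 797 and 802 TPM in the controls. All 3 HA-TAZ libraries lay above all controls, and control a was the lowest. On scaled TPM, which divides each library by its median-of-ratios factor over all expressed genes, SNORA73B had a log2 fold change of 0.42 (SE 0.13) with an adjusted p of 0.0984 by limma (Benjamini-Hochberg over 22651 genes). All fold changes below are HA-TAZ over control on log2(scaled TPM + 1), and all adjusted p-values come from this limma fit unless another source is named.

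SCARNA10, a mixed RNA also known as U85 in an intron of NCAPD2, which guides modification of the U5 spliceosomal RNA, stood at 619, 582 and 500 TPM with HA-TAZ and at 578, 655 and 655 TPM in the controls, so the groups overlapped. Its log2 fold change of 0.15 did not pass (adjusted p = 0.498). The gene sums 2 transcripts that differed in direction. The 330-base snoRNA averaged 411 TPM with HA-TAZ and 354 TPM in the controls, while a 248-base sense intronic transcript averaged 157 and 275 TPM. Neither transcript passed when tested alone, with adjusted p-values of 0.239 and 0.364.

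SCARNA21 ranged from 256 to 341 TPM with HA-TAZ and from 222 to 394 TPM in the controls, and these ranges overlapped. SNORA26, in the long non-coding RNA gene DANCR, ranged from 116 to 183 TPM against 161 to 233 TPM. SCARNA13, in SNHG10, ranged from 147 to 158 TPM against 135 to 158 TPM and had a log2 fold change of 0.35 (adjusted p = 0.106). SNORA33, in the ribosomal protein gene RPS12, ranged from 102 to 125 TPM against 150 to 190 TPM. These were apart on deposited TPM but overlapped after scaling, and its log2 fold change was -0.21 (adjusted p = 0.319). SNORA28, in the translation factor gene EIF5, had a log2 fold change of 0.37 (adjusted p = 0.164). SNORA71C, in SNHG17, had one of 0.32 (adjusted p = 0.344). Among the 10 most abundant genes SNORA55 alone passed the threshold of 0.05 on the adjusted p.

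**Figure D1:**
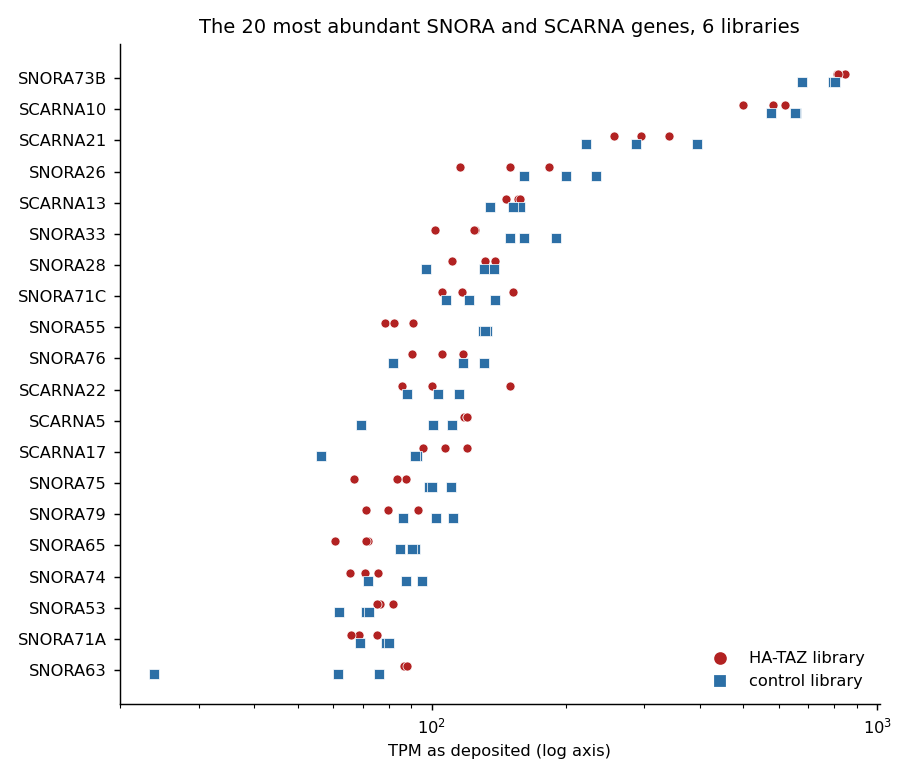
TPM as deposited (log axis) of the 20 SNORA and SCARNA genes with the highest mean, with 1 point for each of the 3 HA-TAZ libraries (circles) and 3 control libraries (squares). SNORA73B and SCARNA10 stand above the rest, and SNORA55 shows HA-TAZ libraries at 78.4 to 90.8 TPM below controls at 130 to 133 TPM.

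Few of the genes passed the threshold. Of the 226, 9 passed (3.98%), against 7.29% of all 22651 genes tested. The 5 that were higher with HA-TAZ made up 2.21% of the 226, against 4.67% of all genes. SNORA59A, counted among the 5, met the level limit only through the HA-TAZ libraries. The 4 that were lower made up 1.77%, against 2.63% of all genes. At an unadjusted p under 0.05 the counts were 18 higher and 26 lower, 19.5% of the 226 against 30.7% of all genes. On scaled TPM the groups did not overlap for 44 of the 226 (19.5%), against 38.5% of all genes, with 21 higher (9.29%, against 20.2%) and 23 lower (10.2%, against 18.3%). The shares among these RNAs were thus below the background on each count. Their transcripts also had fewer reads, a median of about 20.4 per library against 42.8 over all transcripts with statistics. The part of this depth in the lower shares was not tested. None of the 34 SCARNA genes passed (7 higher and 3 lower at an unadjusted p under 0.05 by limma, 3 passing in the fit of TPM as deposited).

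SNORA47 had the smallest adjusted p of the 226. Its scaled TPM was 30.1, 35.1 and 32.4 with HA-TAZ and 18.5, 15.5 and 18.4 in the controls. Every HA-TAZ library lay above every control, and the mean was 1.87 times that of the controls. The log2 fold change was 0.86 (SE 0.09, adjusted p = 0.0128). As deposited, its host ZBED3 averaged 10.6 TPM with HA-TAZ and 13.5 TPM in the controls. After scaling the log2 fold change of ZBED3 was -0.04 (adjusted p = 0.715). SNORA47 passed in 9 of 12 alternative analyses, with adjusted p-values from 0.00816 to 0.0589.

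SNORA59A and SNORA59B rose on what is a single signal in these data. SNORA59A stood at 2.03, 3.39 and 4.82 scaled TPM with HA-TAZ and at 0, 0.105 and 0.757 in controls a, b and c. Its log2 fold change was 1.77 (SE 0.32, adjusted p = 0.0384), and with a control at 0 it depends on the pseudocount of 1: with 0.1 it was 3.68 (adjusted p = 0.0568). As deposited it averaged 3.11 TPM with HA-TAZ and 0.305 TPM in the controls, so SNORA59A met the level limit only through HA-TAZ. Its rise is therefore given as a description, and SNORA59A did not pass without a level filter. The 152-base transcripts of the genes have the same sequence, so a read cannot be assigned to either, and their TPM was equal in every library. SNORA59B also has a 701-base transcript, which contains the whole short RNA and averaged 3.06 TPM with HA-TAZ and 4.45 TPM in the controls. With both transcripts summed, SNORA59B reached 6.79 ± 0.885 scaled TPM with HA-TAZ and 4.25 ± 0.383 in the controls (SD, n = 3), with an adjusted p of 0.0452 by limma. The hosts, the lipid transfer gene VPS13D and the transporter gene SLC47A1, had log2 fold changes of -0.32 (adjusted p = 0.0958) and -0.19 (adjusted p = 0.253).

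SNORA7B stood at 7.58, 6.34 and 4.13 scaled TPM with HA-TAZ and at 2.01, 2.81 and 1.73 in the controls. The groups did not overlap, with a log2 fold change of 1.12 (SE 0.23, adjusted p = 0.0465) at a mean of only 3.95 TPM. The SNORA22C gene stood at 8.60, 9.68 and 10.2 scaled TPM against 6.35, 7.07 and 6.18, a log2 fold change of 0.48 (adjusted p = 0.0405). On deposited TPM its groups overlapped. Both lie in transcribed pseudogenes that did not pass, RPL32P3 at a log2 fold change of -0.22 (adjusted p = 0.337) and CCT6P3 at -0.01 (adjusted p = 0.966). SNORA22 in the active gene CCT6A, which encodes a chaperonin subunit, had a log2 fold change of -0.89 (adjusted p = 0.233). Near-identical family members can share reads, so how the authors' counting split them bears on each of these values.

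SNORA55 was the most abundant gene that fell. It stood at 90.5, 93.9 and 92.6 scaled TPM with HA-TAZ and at 110, 119 and 125 in controls a, b and c. The groups were apart, with a log2 fold change of -0.35 (SE 0.06, adjusted p = 0.0316). Its host PABPC4, a cytoplasmic poly(A)-binding protein gene, averaged 248 TPM with HA-TAZ and 358 TPM in the controls. On the scaled values the host had a log2 fold change of -0.22 (adjusted p = 0.231). The opposite-strand gene AL365277.1 had one of -0.48 (adjusted p = 0.101).

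The other genes that fell were the 3 family copies. The SNORA67 copy stood at 17.9, 25.8 and 21.5 scaled TPM with HA-TAZ and at 33.3, 41.6 and 36.9 in the controls, a log2 fold change of -0.76 (SE 0.15, adjusted p = 0.0420). MAP4K3, the kinase gene around it, also fell, with a log2 fold change of -0.49 (SE 0.09, adjusted p = 0.0389). Reads from a copy and from the intron around it cannot be told apart in these values. The SNORA36 copy stood at 8.32, 11.2 and 8.33 scaled TPM against 14.2, 17.2 and 16.2, a log2 fold change of -0.72 (adjusted p = 0.0394). The gene on the opposite strand, GPN1, moved the other way, with a log2 fold change of 0.38 (adjusted p = 0.0462). The SNORA4 copy stood at 19.7, 19.6 and 14.3 scaled TPM against 32.0, 26.8 and 28.6, a log2 fold change of -0.68 (adjusted p = 0.0460). Its opposite-strand gene SF3B1, a core splicing factor, had a log2 fold change of 0.14 (adjusted p = 0.207). Whether the authors' quantification used the strand of a read is not given in the sources used here, so reads from the opposite gene cannot be told apart from those of a copy.

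**Figure D2:**
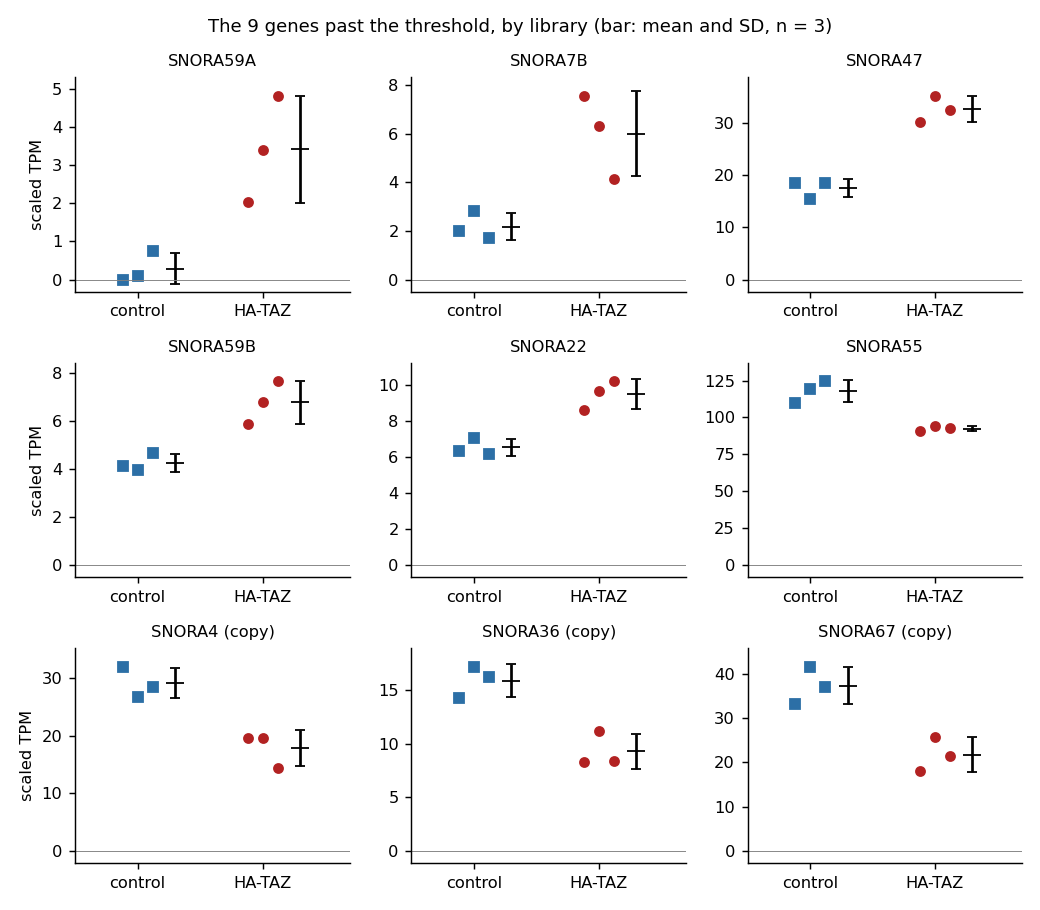
Scaled TPM (TPM divided by the median-of-ratios factor of each library) of the 9 genes with an adjusted p under 0.05, with 1 point for each library and a bar for the mean and SD (n = 3) of each group. The groups do not overlap in any panel, and SNORA59A has a control library at 0.

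The 9 genes rested on all 6 libraries. Without HA-TAZ 1, control a, control b or control c, 1, 3, 1 and 2 genes of the 226 passed, of which 0, 2, 1 and 1 were among the 9. Without HA-TAZ 2 or HA-TAZ 3, 0 passed by limma, with 45 and 39 genes at an unadjusted p under 0.05. Across all genes the number past the threshold dropped from 1652 to between 115 and 433. Of the 9, SNORA47 passed in 3 of these 6 fits, SNORA55 in 1 and the other 7 in 0. Every one of the 9 kept its sign in each alternative that could be fitted to it. A single gene compared by an exact two-sided permutation of 3 against 3 libraries cannot go below p = 0.1.

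The scale decided how many genes were read as lower. On TPM as deposited the median log2 fold change of all genes was -0.27, against -0.03 after scaling, and that of the 226 was -0.35, against -0.09. On that scale 25 of the 226 passed (11.1%, against 14.7% of all genes), 2 of them higher (against 1.15% of all genes), and 6 of the 9 genes were among them. The summed TPM of the 226 lay between 5742 and 5836 with HA-TAZ and between 6428 and 6799 in the controls, 0.574% to 0.680% of a library. On scaled TPM the order turned, with 6400 ± 320 against 5938 ± 568 (SD, n = 3), and the groups overlapped.

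Different kinds of gene stood behind these symbols. GENCODE release 29 gives 103 of the 226 a SNORA or SCARNA name of their own, and 101 appear only as copies named by an Rfam family. Another 18 are not in that release and 4 carry the name of a longer RNA. This division was made after the values were seen, so the classes are described without a test. The 103 individually named genes had a median level of 23.2 TPM, and 101 of them lie inside a gene on the same strand. The 101 copies had a median of 5.40 TPM. Of these, 43 lie inside a gene on their strand, 51 only opposite a gene, and 7 in neither.

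The fold changes of the named genes and of the copies are described side by side. Among the named genes 57 were positive and 46 negative, with a median log2 fold change of 0.05, and 5 passed as higher and 1 as lower. The share passing as higher was 4.85%, against 4.67% of all genes. These 5 include SNORA59A, which met the level limit only through HA-TAZ, and SNORA59B, which shares its signal. The balance of 57 to 46 turned to 46 to 57 with scaling from protein-coding genes and to 34 to 69 on deposited TPM. Among the copies 25 were positive and 76 negative, with a median of -0.30, and 0 passed as higher and 3 as lower (2 higher and 18 lower at an unadjusted p under 0.05 by limma, with 0 higher and 13 lower passing on deposited TPM). The share passing as lower was 2.97%, against 2.63% of all genes. Without HA-TAZ 1, 64 copies were negative, with a median of -0.21. Without any other single library 69 to 74 copies were negative, with medians from -0.43 to -0.28. Over all 22651 genes, 3759 were higher and 3200 lower at an unadjusted p under 0.05 by limma. On deposited TPM 3329 of all genes passed, 261 of them higher, so the share of copies passing as lower was near that of all genes. The median over all genes was -0.03. On deposited TPM the medians were -0.23 and -0.53 against -0.27 for all genes, so named genes stayed near the bulk of genes and copies below it on both scales. The copies summed to 571, 765 and 733 TPM with HA-TAZ and to 1261, 1043 and 1049 TPM in the controls. On scaled TPM their sums were 758 ± 86.7 and 997 ± 43.5 (SD, n = 3), and the groups stayed apart. The copies lying only opposite a gene had a median of -0.30 and those inside a gene on the same strand one of -0.22. Over 50 copies opposite a tested gene the median fold change of that gene was 0.02, and over 42 copies inside a tested gene on the same strand it was -0.01.

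**Figure D3:**
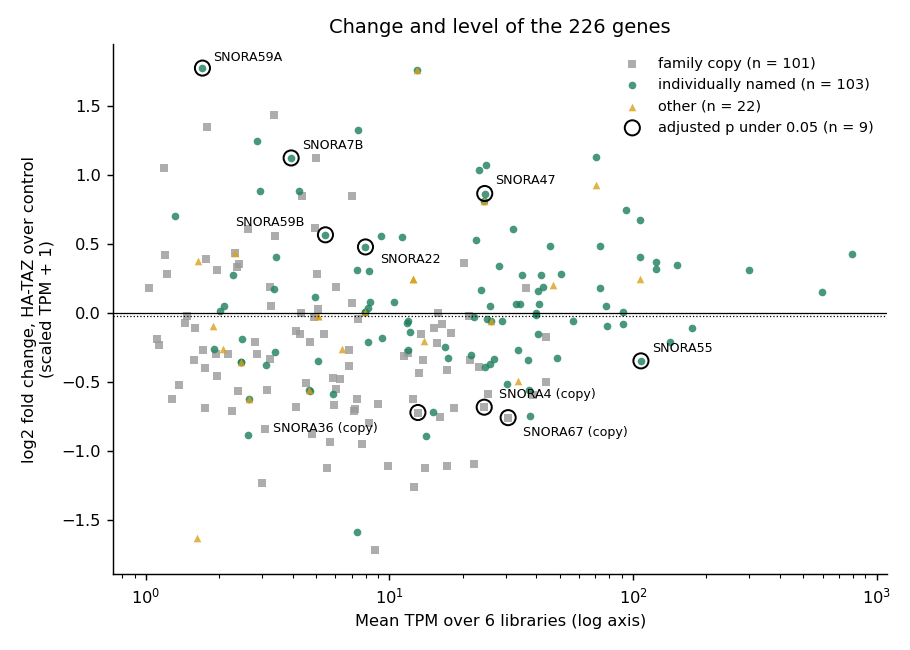
Log2 fold change of HA-TAZ over control on scaled TPM + 1 against the mean TPM over 6 libraries (log axis) for the 226 genes, by class, with the 9 genes past the threshold ringed. The dotted line is the median of all genes tested, at -0.03, and the grey squares of the 101 family copies lie mostly below it.

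Other short RNA genes in the same fit are given for comparison, without a test. The 148 SNORD genes, which encode box C/D RNAs that guide ribose methylation, had a median log2 fold change of 0.04, with 6 passing as higher and 3 as lower (6.08% in all, against 7.29% of all genes tested). The 98 SNORD genes with a name of their own had a median of 0.22. The 684 genes of the snRNA type, a class that holds the spliceosomal RNAs, had a median of -0.42, with 12 passing as higher and 31 as lower (6.29% in all). The share passing as lower was 4.53%, against 2.63% of all genes. This class had a median level of 5.03 TPM and was not split into named genes and copies. Its median fold change is therefore not one of the spliceosomal RNAs alone. Protein-coding genes had a median of 0.06, with 9.68% passing.

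The printed sequences were compared with those of the other genes. Of the 226 genes 205 had a snoRNA or scaRNA transcript matched by identifier. An ACA within the last 10 bases was present in 95.2% of 83 named SNORA genes, in 68.4% of 19 named SCARNA genes and in 72.7% of 99 copies. The same was true of 4.86% of 288 SNORD transcripts and of 13.9% of all 206694 GENCODE transcripts. The search was for the letters ACA on the RNA strand only, and a match is a description of these letters. With exactly 3 bases after the ACA, the shares were 74.7%, 47.4% and 61.6%, against 1.39% of the SNORD transcripts and 2.37% of all transcripts. SCARNA22 and SNORA73B show this end in the sequences above, while SNORA47 has 4 bases after the ACA and the SNORA4 copy has 2.

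SCARNA genes with a sequence were also sorted by kind, in a set that differs from the 19 named ones. It takes in SCARNA2, which carries the name of a longer RNA, and leaves out SCARNA21B. In it all 11 of the pure H/ACA kind carried the ACA and none of the 4 of the pure C/D kind did. A C box TGATGA in the first 15 bases together with a D box CTGA in the last 15 was found in all 4 mixed SCARNA genes and in 2 of the 4 of the pure C/D kind. The same pair was found in 0 of the 83 named SNORA genes and in 61.1% of the SNORD transcripts. The family copies differed in sequence or length from the genes that give them their symbol. Over 93 copies with a named relative, the median identity to the nearest one was 78.5%, from 41.8% to 94.0%, and 6 copies reached 90%. Identity was counted over the longer sequence of each pair, so missing bases lower it as changed bases do. The lowest value was that of an 83-base SCARNA18 copy set against a named SCARNA18 of 134 bases. The SNORA67 copy that fell had 61.3% identity to SNORA67, the SNORA36 copy 84.0% to SNORA36B and the SNORA4 copy 81.9% to SNORA4.

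Host genes and the small RNAs inside them were compared pair by pair, without a test of the difference. For 98 individually named genes a host was tested, 85 hosts in all, and 74 of these were protein-coding. Fold changes had the same sign in 54 pairs and opposite signs in 44, with a Pearson correlation of 0.16 and a Spearman correlation of 0.13. These describe pairs of genes that share libraries and in part share reads. The fold changes of the small RNAs spread more widely (SD 0.55) than those of the hosts (SD 0.23). Among the 226 genes the median SE was 0.50 at 1 to 5 TPM and 0.33 at 5 to 20 TPM. The part of measurement error in the wider spread and in the weak correlations was not tested. Some pairs also have equal values, such as the SNORA74 genes in TIMM23 and TIMM23B. In 84 of the 101 genes inside a host no base overlapped an annotated exon of it, 9 lay wholly within an exon of some transcript and 8 in part. The 6 individually named genes past the threshold overlapped no exon of their hosts, and none of those hosts passed. MAP4K3, around the SNORA67 copy, did pass.

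**Figure D4:**
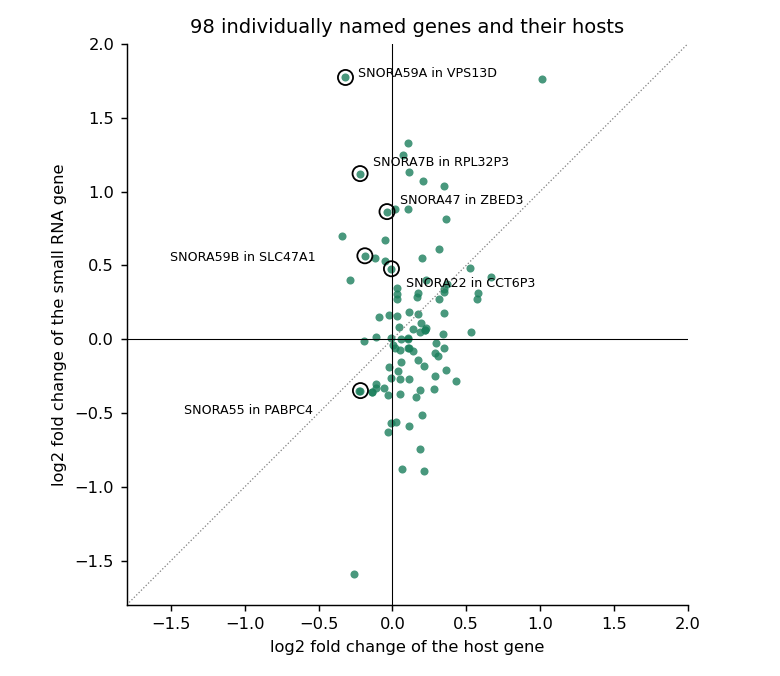
Log2 fold change of 98 individually named SNORA and SCARNA genes (vertical axis) against that of the gene around them (horizontal axis), both on scaled TPM + 1, with the genes past the threshold ringed and the line of equal change dotted. The hosts stay between -0.34 and 1.01 while the small RNAs span -1.59 to 1.77.

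Of these 85 hosts 6 passed, 5 higher and 1 lower (7.06%, against 7.29% of all genes), and the small RNAs inside them did not pass. NSD2, listed as WHSC1, averaged 106 TPM with HA-TAZ and 160 TPM in the controls as deposited. After scaling NSD2 had a log2 fold change of -0.29 (adjusted p = 0.0293). SCARNA22 in its intron stood at 100, 85.9 and 150 TPM with HA-TAZ and at 87.9, 103 and 115 TPM in the controls. These groups overlapped, and the log2 fold change of SCARNA22 was 0.40 (SE 0.26, adjusted p = 0.346). EIF5 rose with a log2 fold change of 0.37 (adjusted p = 0.0186) and DANCR with one of 0.31 (adjusted p = 0.0297), and SNORA28 and SNORA26 inside them are given above. SNHG17 rose with one of 0.35 (adjusted p = 0.0250). The 4 genes in SNHG17, SNORA71A, SNORA71B, SNORA71C and SNORA71D, had log2 fold changes of 0.18, 0.34, 0.32 and 1.03, none past the threshold. SLC25A3, the mitochondrial phosphate carrier, and PHB2, a prohibitin, also rose, with log2 fold changes of 0.52 and 0.37, while SNORA53 and SCARNA12 inside them had 0.48 (adjusted p = 0.072) and 0.81 (adjusted p = 0.134).

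RNAs of the same host did not always move alike. EIF4A2, a translation helicase gene, holds SNORA63 at a log2 fold change of 1.13 (adjusted p = 0.166) and SNORA81 at -0.06 (adjusted p = 0.799). Both lie wholly within an annotated exon of EIF4A2, and the SNORA81 sequence is contained in an EIF4A2 transcript. Reads can thus be shared with the host, and how they were split was not tested. KANSL2 holds SNORA2B, SNORA2A and SNORA34 at -0.75, -0.34 and 0.05. CNOT1, the scaffold of a deadenylase complex, holds SNORA50 and SNORA46 at -0.33 and -0.31, and ATG16L1, an autophagy gene, holds the mixed RNAs SCARNA5 and SCARNA6 at 0.67 and 0.53. None of these passed, and the differences within a host were not tested. They were named after their values were seen.

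Control a was low for several of these RNAs. SNORA63 in EIF4A2 was at 86.8, 86.5 and 88.2 TPM with HA-TAZ and at 23.8, 61.7 and 76.2 TPM in controls a, b and c. The HA-TAZ libraries were close together and the controls were not. SNORA70 in the ribosomal protein gene RPL10 was at 14.0, 7.68 and 31.4 TPM with HA-TAZ and at 0, 8.73 and 15.8 TPM in the controls. SNORA21B in RPL23 was at 8.90, 5.65 and 12.7 TPM and at 0, 11.96 and 5.52 TPM. Control a was the lowest of the 6 libraries for each of these 3 genes. All 3 lie wholly within an annotated exon of their host. The sequences of SNORA70 and SNORA21B are also contained in a transcript of RPL10 and of RPL23. How reads were split between these genes and their hosts was not tested, so the values may not be those of the small RNAs alone. In control a the 103 named genes had a median deviation of -0.15 from their mean over libraries on the log2 scale and the 101 copies one of 0.22. Control c was also at 0.22 for the copies, and HA-TAZ 1 was at 0.15 for the named genes and at -0.30 for the copies. Without control a SNORA70 dropped from a log2 fold change of 1.76 to 0.57 and SNORA21B from 1.33 to 0.29. Control a also had the largest scaling factor, 1.21, and the part of this library in the results was not tested beyond leaving it out.

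Several symbols covered more than the small RNA. SNORA76 ranked 10 by level, with 107 TPM, but its 133-base snoRNA transcript was listed at 0 in all 6 libraries and the signal came from transcripts of the long non-coding RNA SNHG25. SCARNA9, of the C/D kind, rested on a 353-base antisense transcript, and its short transcripts were listed at 0 except for 5.43 TPM of 1 of them in control c. SCARNA2, another C/D RNA, summed a 420-base scaRNA and a 427-base long non-coding transcript. The gene stood at 80.3, 72.0 and 105 TPM with HA-TAZ and at 47.4, 49.7 and 68.2 TPM in the controls. The groups did not overlap, and the log2 fold change of 0.93 had an adjusted p of 0.0683, which passed only when genes under a mean of 5 TPM were left out (adjusted p = 0.0452). Of the 226 genes 22 shared all 6 values with another, in 10 sets, among them the SNORA70 gene of RPL10 and a second entry outside GENCODE 29. The 226 thus held 214 distinct profiles.

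The authors' deposited table gave few changes for the same RNAs. It lists 236 transcripts of the 226 genes and gives statistics for 185. By the authors' deposited table, 2 of these had a q-value under 0.05 (1.08%, against 5.68% of all transcripts with statistics). They were SNORA73B, with a natural log effect of 0.295 (standard error 0.0888, q = 0.0224), and SNORA53, with 0.339 (standard error 0.103, q = 0.0234), in the authors' deposited table. Both effects are positive, and both genes were above all controls here, with adjusted p-values of 0.0984 and 0.0719 by limma. No gene passed by both the limma fit and the authors' deposited table.

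The depth behind most of these RNAs was low. From the mean in the authors' deposited table a median transcript of the 185 had about 20.4 estimated reads per library (quartiles 9.50 and 53.1), against 42.8 over all transcripts with statistics. At 20.4 reads, counting alone gives an error of 22.2%. The median coefficient of variation within groups fell from 59.4% for genes at 1 to 5 TPM to 32.5% at 5 to 20, 18.2% at 20 to 70 and 13.8% above. Genes at 1 to 5 TPM had a median SE of 0.50 on the log2 fold change, so a difference of the size seen for SNORA55 was not detectable for most of them at this depth. In the highest level class 16 of 21 genes were positive, with a median log2 fold change of 0.31 after scaling and of 0.01 on deposited TPM, where all genes had -0.27. At the edge of the rule the SNORA51 copy in WDR17 averaged 1.03 TPM and the SNORA74 copy in COX10 1.12 TPM. Just outside were a pair of SNORA40 entries at 0.984 and 0.963 TPM.

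The genes of the pathway that works with these RNAs, and other pseudouridine synthases, were set beside protein-coding genes at large. Of 39 genes listed, from core proteins to other pseudouridine synthases, 4 passed as higher and 0 as lower (17 and 1 at an unadjusted p under 0.05 by limma, and 0 to 9 passing in the alternative fits). The 12 other pseudouridine synthases held 2 of the 4 and 6 of the 17. The shares given next are thus not those of the H/ACA pathway alone. The share passing as higher was 10.3%, against 4.67% of all genes and 7.50% of protein-coding genes, and the share higher at an unadjusted p under 0.05 was 43.6%, against 16.6% and 26.0%. The median log2 fold change was 0.20 after scaling but -0.09 on deposited TPM, against -0.03 and -0.27 for all genes and 0.06 and -0.20 for protein-coding genes. Those that rose were TCOF1, a nucleolar factor in ribosomal RNA synthesis, with 0.22 (adjusted p = 0.0469), PABPN1, a nuclear poly(A)-binding protein, with 0.20 (adjusted p = 0.0431), and the pseudouridine synthases TRUB2, with 0.21 (adjusted p = 0.0485), and RPUSD1, with 0.73 (adjusted p = 0.0416). On deposited TPM TCOF1, PABPN1 and TRUB2 turned to -0.071, -0.097 and -0.085 and did not pass, while RPUSD1 stayed positive at 0.44 (adjusted p = 0.0409).

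None of the 4 core proteins passed. DKC1, which encodes the synthase dyskerin and holds SNORA36A, averaged 63.2 ± 5.69 TPM with HA-TAZ and 76.8 ± 8.71 TPM in the controls (SD, n = 3), with a log2 fold change of 0.02 on scaled values (adjusted p = 0.811). NHP2, NOP10 and GAR1 had log2 fold changes of 0.34, 0.24 and 0.22, with adjusted p-values of 0.144, 0.0822 and 0.0602. On deposited TPM the values of DKC1, NOP10 and GAR1 were negative, at -0.27, -0.059 and -0.070. Telomerase RNA, TERC, stood at 380, 317 and 389 TPM with HA-TAZ and at 195, 284 and 331 TPM in controls a, b and c. These groups overlapped on deposited TPM and were apart after scaling, with a log2 fold change of 0.75 (SE 0.26, adjusted p = 0.123). The assembly factor NAF1 and the Cajal body proteins COIL and WRAP53 had log2 fold changes of -0.04, 0.11 and 0.10, with adjusted p-values of 0.678, 0.359 and 0.500.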

How the data were processed

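The authors deposited TPM for 6 libraries and a table of their own comparison. Per the submitters' processing notes, kallisto 0.46.0, sleuth 0.30.0 and the build GRCh37 were used; the annotation release and strand setting are not given in the sources used here. Per the labels' protocols, RNA was column-purified, depleted of ribosomal RNA and sequenced with a stranded kit. Per the file headers, the deposited comparison holds p-values and q-values, effects and mean observations on the natural log (ln) scale, and the authors' variance terms, used as scores or not at all. All 6 TPM columns have the same sum and carry no depth; estimated reads come from the deposited natural log means. Here TPM was summed per gene, divided by a median-of-ratios factor (0.866 to 1.21) and tested in 22651 genes with mean TPM of at least 1 by limma 3.58.1 with trend in R 4.3.3; tests were two-sided, on log2(scaled TPM + 1), and p-values were adjusted by the Benjamini-Hochberg method. No per-sample column was left unmapped. The members, lists and classes were chosen with earlier results of these data known, and the fit was tested on simulated data. Named genes are the 10 most abundant members, all past the threshold, SCARNA22, SCARNA2, SCARNA10 and SCARNA13, those nearest the level limit, the 3 with the widest spread within a group, hosts and the pathway list; others were chosen after their values were seen. GENCODE 29, on another build, gave names, sequences and gene neighbours by identifier, without coordinates. Alternatives changed the scaling, pseudocount, level filter, trend, unit (transcripts) or q-value limit, or left out a library.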

Additional observations from a re-analysis of the deposited data

How the results depend on the processing

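The number of H/ACA and Cajal body genes past the threshold was 9, and 8 to 11 with scaling from protein-coding genes, a pseudocount of 0.1 or a minimum of 5 TPM. It was 25 on TPM as deposited, and 1 without a level filter, without the trend or with each transcript tested alone. It was 0 to 3 when a library was left out. Over all genes the number was 1652, against 3329 as deposited, 691 without a filter, 758 without the trend and 115, 121 and 194 without an HA-TAZ library and 392, 134 and 433 without control a, b or c. Higher genes made up 64.0% of these calls, 43.4% with scaling from protein-coding genes and 7.84% as deposited. The pathway list had 4, against 1 with scaling from protein-coding genes, 9 at a minimum of 5 TPM, 0 without a filter or trend, and 0 to 1 without a library. The median log2 fold change of the members was -0.09, and -0.35 as deposited. The authors' transcripts under a q-value limit dropped from 2 to 0 at 0.01. The difference in summed TPM turned from -817 to 462 on scaled TPM. Single log2 fold changes changed sign for SCARNA10 (-0.15) and SNORA76 (-0.056) as deposited, SNORA76 (-0.014) and the SNORA51 copy (-0.24) without control a, SNORA26 (0.046 without HA-TAZ 3, -0.30 without HA-TAZ 1) and the SNORA74 copy (0.21) without control c. The causes were not tested beyond what each alternative changes. No paired analysis was possible because the control columns carry a name that is in no label, so their numbers cannot be tied to numbered samples. Low read numbers limit genes under 5 TPM.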
